A study of Mus musculus with 4 samples.

Results

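The smooth muscle actin filament core is taken here as 10 genes, Acta2, Actg2, Tagln, Cnn1, Cald1, Tpm1, Tpm2, Smtn, Lmod1 and Des, chosen by symbol and read from 24 of the 56605 non-control probes of a mouse Agilent array. Of these genes, 8 had a probe bright enough to be tested among 17660 genes or unnamed probes. RNA came from vascular smooth muscle cells grown out of explanted aorta of adult C57BL/6J mice with the genotype EP4-Tg. EP4 is a Gs-coupled receptor for prostaglandin E2 (PGE2), and the labels name neither the promoter nor the species of the transgene. There were 2 cultures given PGE2 for 24 h, for which the sources name no dose, and 2 control cultures left untreated for 24 h. Every culture carried the EP4-Tg genotype and had 1 array. The design text calls the cultures biological replicates, and the labels do not say whether each came from separate mice, so p-values measure only the spread between these arrays.

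In smooth muscle, filaments of smooth muscle actin slide along myosin to generate tension. Tropomyosin and caldesmon lie along the filament and control access of myosin, calponin and transgelin bind its side, smoothelin and leiomodin associate with it and shape its assembly, and desmin forms the intermediate filaments that tie the contractile apparatus together. Most of these genes are driven by serum response factor (SRF) with myocardin-family cofactors, and their transcripts are the usual readout of the contractile state, which falls when aortic cells take on a synthetic state in culture.

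The 8 tested core genes all had lower mean signals with PGE2 than in control cultures, which was so of 52.7% of all tested genes. None of the 8 passed the test across all genes (adjusted p at 0.05, limma), which called 0.272% of tested genes lower and 0.396% higher, or 0.668% in either direction. The smooth muscle actin genes Acta2 and Actg2, the transgelin gene Tagln, the calponin gene Cnn1 and the tropomyosin gene Tpm2 had the largest differences, between 2.53-fold and 4.80-fold. Tpm1, Cald1 and Smtn differed by less, between 1.26-fold and 1.79-fold. Lmod1 was well above background on 1 control array only, and Des on 1 PGE2 array only. Here and below, above background means the scanner call of well above background. Levels below are log2 processed intensity minus the array's own 75th percentile, so 0 is the signal that 75% of spots lie under. Differences are PGE2 minus control on that log2 scale, each with its limma standard error over 2 arrays per group. Probes differ in how well they bind, so levels of different genes or probes are not compared.

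**Figure D1:**
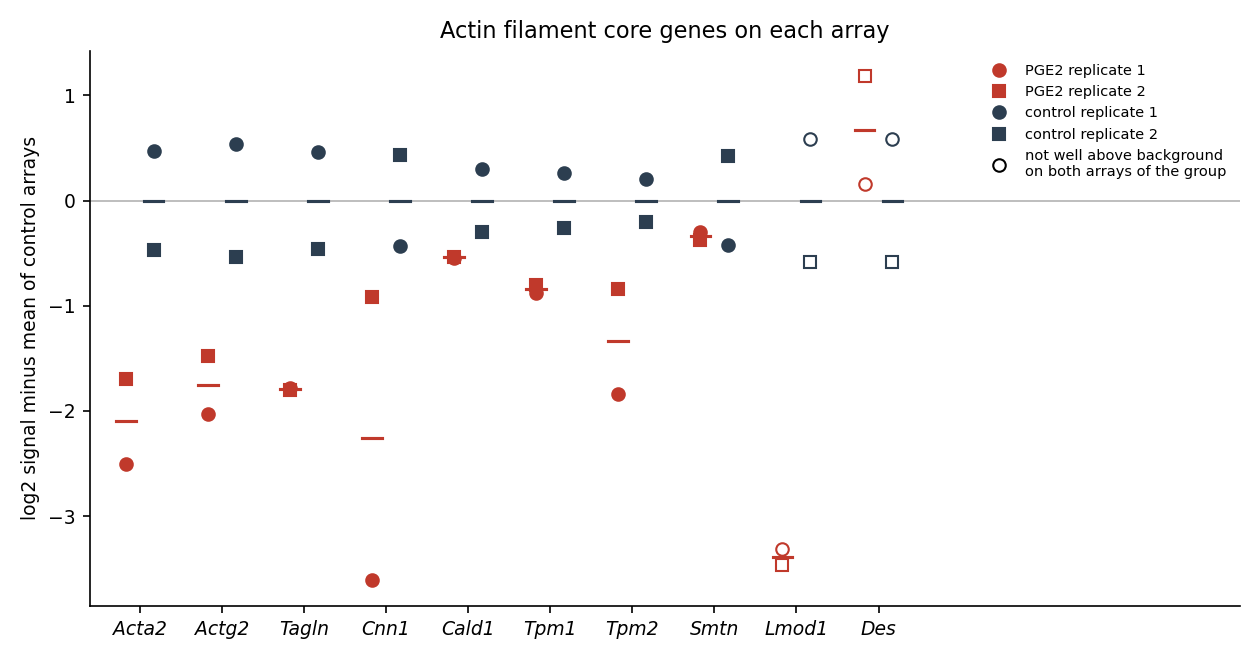
Log2 signal of each core gene on each array, minus the mean of the 2 control arrays, for the probe that represents the gene (horizontal bars: group means; PGE2 in red on the left, control in dark blue on the right; open symbols: the gene was not well above background on both arrays of that group). Both PGE2 arrays lie below both control arrays for Acta2, Actg2, Tagln, Cnn1, Cald1, Tpm1 and Tpm2, the PGE2 arrays of Smtn lie between its control arrays, and Cnn1 has the widest gap between PGE2 arrays.

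Acta2 (cytoband 19qC1) encodes the alpha actin that is the main actin of arterial smooth muscle. Its brightest probe, A_52_P420504, stood at 5.70 and 6.51 on the PGE2 arrays, against 8.67 and 7.73 on the control arrays. The groups did not overlap, with PGE2 replicate 1 lowest and control replicate 1 highest. The difference was -2.10 ± 0.46, or 4.28-fold lower with PGE2, with a 95% interval of -3.34 to -0.85 and an adjusted p = 0.152 (limma, Benjamini-Hochberg over 17660 genes). The other measured Acta2 probes gave the same order of groups, with A_51_P450957 at 4.92 and 5.22 with PGE2 against 6.95 and 5.92 in control, and A_52_P210078 at 0.27 and 1.28 against 4.17 and 2.67. Their differences were -1.37 ± 0.40 and -2.64 ± 0.64 when each probe was fitted by itself (adjusted p = 0.222 and 0.173, limma over 26100 probes). The 3 Acta2 probes thus placed the difference between 2.58-fold and 6.25-fold. Whether each of the 3 read Acta2 alone was not tested. Another probe, A_52_P644232, designed on a clone, was above background on control replicate 1 only and, set against a floor, was 1.78-fold lower with PGE2. Such a fold sets the control mean against a floor, which on each PGE2 array was the higher of the dimmest signal well above background and the probe's own. The control mean includes replicate 2, which was not well above background for this probe, so the fold is rough and not a strict bound.

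The promoter of Acta2 is known for SRF-binding CArG boxes, in which CC and GG flank 6 bases that are A or T. It is shown with those of Cnn1 and Smtn, the tested core genes with the largest and the smallest difference, because the core genes are usually described as sharing this control. The windows are the 250 bases before the RefSeq gene start, written along the gene's strand on build GRCm38.p6, at chr19:34255374-34255623 (minus strand) for Acta2, chr9:22099003-22099252 (plus strand) for Cnn1 and chr11:3539293-3539542 (minus strand) for Smtn. Capitals mark a CArG box with at most 1 of its 6 middle bases being C or G, and the M-CAT letters CATTCC, bound by TEAD factors, on either strand.
Acta2: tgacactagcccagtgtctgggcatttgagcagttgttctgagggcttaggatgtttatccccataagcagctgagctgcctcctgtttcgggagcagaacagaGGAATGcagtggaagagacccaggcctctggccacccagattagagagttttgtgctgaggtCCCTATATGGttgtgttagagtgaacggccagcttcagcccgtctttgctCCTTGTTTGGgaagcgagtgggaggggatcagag
Cnn1: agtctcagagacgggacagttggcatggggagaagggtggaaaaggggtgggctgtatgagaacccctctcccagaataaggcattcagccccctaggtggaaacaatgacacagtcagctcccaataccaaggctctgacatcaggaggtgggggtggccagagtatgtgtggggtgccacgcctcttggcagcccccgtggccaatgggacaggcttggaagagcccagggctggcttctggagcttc
Smtn: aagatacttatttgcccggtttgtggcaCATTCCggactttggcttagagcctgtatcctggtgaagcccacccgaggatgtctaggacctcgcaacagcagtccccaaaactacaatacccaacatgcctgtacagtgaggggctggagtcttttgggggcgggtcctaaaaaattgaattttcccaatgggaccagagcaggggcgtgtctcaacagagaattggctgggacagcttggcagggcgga
Of the 10 core genes, 8 had a window in the RefSeq table, and the 2 without one are Actg2 and Tagln. Acta2 held 2 CArG boxes with 1 base off, CCCTATATGG at 84 to 75 bases and CCTTGTTTGG at 34 to 25 bases before the start, while 0 of the 9 windows of these genes held one with all 6 bases A or T. A box with at most 1 base off stands in 8.60% of 32817 mouse windows, and a box with none off in 1.47%. The M-CAT letters stood in 5 of the 9 windows, those of Acta2, Tpm1, Smtn, Lmod1 and the first of the pair for Cald1, against 12.6% of all windows. The letters TGACG, the core of the cyclic AMP response element, stood on either strand in 3 of the 9, both Cald1 windows and Tpm1, against 17.7% of all. No motif overlapped another in these windows. A match is a match of letters only, and boxes outside these windows were not searched.

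Actg2 (6qC3) encodes the gamma actin that is best known from visceral smooth muscle. Its only probe, A_51_P241269, stood at 2.78 and 3.33 with PGE2, against 5.35 and 4.27 in control, with no overlap. The difference was -1.75 ± 0.45, or 3.37-fold lower (adjusted p = 0.185, limma). As for Acta2, control replicate 1 was highest and PGE2 replicate 1 lowest.

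The remaining actin genes were set beside these as a list of 4. The striated muscle actin genes Actc1 and Acta1 had differences of -2.58 ± 0.55 and -2.59 ± 0.55 (adjusted p = 0.15 for each, limma). Actc1 stood at 2.25 and 3.06 with PGE2 against 5.89 and 4.59 in control, and Acta1 at 0.33 and 1.17 against 3.98 and 2.69. Muscle actin genes are near-identical in coding sequence, so a probe of one may read transcripts of another. The Acta2, Actg2, Actc1 and Acta1 values are uncertain for that reason. The cytoplasmic actin genes Actb and Actg1, which are used by every cell, had differences of -0.42 ± 0.20 and -0.34 ± 0.28 (adjusted p = 0.361 and 0.578), and the 2 other Actg1 probes stood at 0.03 and 0.06. For Actb the PGE2 arrays stood at 8.20 and 8.25 and the control arrays at 8.83 and 8.46, while the Actg1 arrays overlapped.

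**Figure D2:**
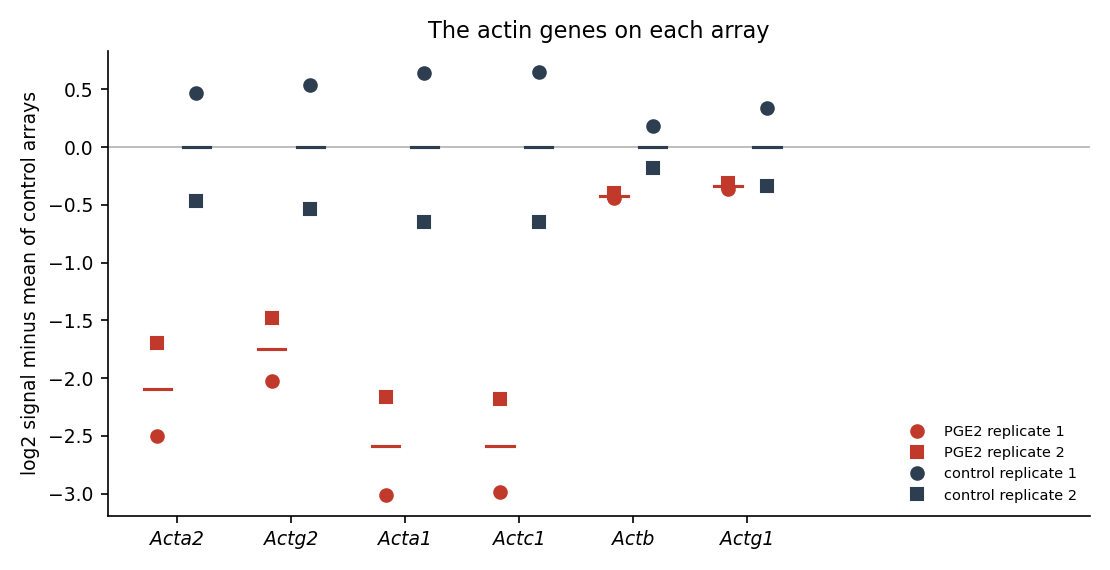
Log2 signal of the 6 actin genes on each array, minus the mean of the 2 control arrays (horizontal bars: group means; PGE2 in red on the left, control in dark blue on the right). The differences are -2.10 for Acta2, -1.75 for Actg2, -2.59 for Acta1 and -2.58 for Actc1, against -0.42 for Actb and -0.34 for Actg1.

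A ratio to Actb on the same array does not depend on a scaling by 1 constant per array, and was taken after the values were seen. Actb itself stood lower on both PGE2 arrays, with a difference of -0.42 ± 0.20. Each ratio difference therefore lies higher than the gene's own difference by that amount. The log2 ratio of Acta2 to Actb was -2.50 and -1.74 with PGE2, against -0.15 and -0.73 in control, a difference of -1.68, or 3.20-fold lower. The ratio was 2.52-fold lower for Actg2, 2.59-fold for Tagln, 1.89-fold for Tpm2 and 1.34-fold for Tpm1, each without overlap of the groups. An exact two-sided permutation test gave p = 0.333 for each of these 5, the smallest it can give with 2 arrays against 2. The share of all tested genes without overlap on this ratio was not computed. Without the ratio, both PGE2 arrays lay below both control arrays in 28.3% of tested genes. The ratios of Cnn1, Cald1 and Smtn overlapped between the groups, with differences of -1.84, -0.12 and 0.09 (exact permutation p = 0.667, 0.667 and 1).

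Of the proteins that bind the side of the filament, transgelin is encoded by Tagln (9qA5.2), an early marker of smooth muscle also called SM22 alpha. Its probe, A_51_P450527, stood at 5.88 and 5.86 with PGE2, against 8.13 and 7.20 in control. The PGE2 arrays lay within 0.02 of each other and the control arrays 0.93 apart, without overlap. The difference was -1.79 ± 0.35, or 3.47-fold lower, with the smallest adjusted p among the core genes at 0.134 (limma).

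Cnn1 (9qA3) encodes calponin 1, which inhibits actomyosin and is confined largely to contractile smooth muscle. Its brighter probe, A_51_P350817, stood at 0.22 and 2.92 with PGE2, against 3.40 and 4.26 in control, and its dimmer probe, A_55_P2744265, at -4.19 and -2.01 against -1.33 and -0.40. On the brighter probe PGE2 replicate 2 came close to control replicate 1, while PGE2 replicate 1 lay far below. The dimmer probe was not well above background on PGE2 replicate 1 and passed the filter through control, so its value there is only an upper bound. The difference of the brighter probe, -2.26 ± 0.99 or 4.80-fold lower, was the largest among tested core genes but had the widest 95% interval, -4.99 to 0.46 (adjusted p = 0.338, limma). It was -0.91 without PGE2 replicate 1 and -3.61 without PGE2 replicate 2 (adjusted p = 0.691 and 0.0607), so its size rests on PGE2 replicate 1. In control cultures Cnn1 was higher in replicate 2, whereas Acta2, Actg2 and Tagln were higher in replicate 1.

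Caldesmon, encoded by Cald1 (6qB1), binds actin, tropomyosin and myosin and is made in a smooth muscle form and a form found in most cells. The representing probe, A_66_P105683, stood at 5.89 and 5.90 with PGE2, against 6.74 and 6.14 in control, a difference of -0.54 ± 0.26 or 1.45-fold lower (adjusted p = 0.366, limma). It was -0.24 with control replicate 1 left out, -0.84 with control replicate 2 left out, and -0.12 after quantile normalization. The next 2 probes by signal differed by -0.65 each, also without overlap of the groups. The dim probe A_55_P2620849 stood at -1.96 and -1.61 against -1.73 and -1.73, a difference of -0.06 ± 0.20. The last Cald1 probe was above background on 1 array of each group and was not tested.

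Tropomyosin beta, encoded by Tpm2 (4qB1), was read by 2 probes that gave like differences. The brighter, designed on transcript variant Tpm2.3, stood at 3.26 and 4.26 with PGE2, against 5.30 and 4.90 in control, and the dimmer, designed on Tpm2.2, at -3.15 and -2.05 against -1.06 and -1.23. Both PGE2 arrays lay below both control arrays on either probe, with PGE2 replicate 1 about 1 unit under PGE2 replicate 2. The differences were -1.34 ± 0.40 (adjusted p = 0.227, limma over genes) and -1.45 ± 0.41 (adjusted p = 0.217, limma over probes). That of the brighter probe was -0.84 without PGE2 replicate 1 and -1.84 without PGE2 replicate 2.

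Tropomyosin alpha, encoded by Tpm1 (9qC), was read by 4 probes designed on different transcripts. The brightest, designed on variant Tpm1.1, stood at 2.75 and 2.83 with PGE2, against 3.89 and 3.37 in control, without overlap and with a difference of -0.84 ± 0.24, or 1.79-fold lower (adjusted p = 0.211, limma). With all kept Tpm1 probes averaged the difference was -0.44. The groups overlapped on the other 3, where the differences were -0.31 ± 0.28 (variant Tpm1.10), -0.25 ± 0.23 (a clone) and -0.35 ± 0.35 (variant Tpm1.5). Whether the 4 Tpm1 probes differed from one another was not tested.

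Smoothelin, encoded by Smtn (11qA1), is found in contractile smooth muscle and binds actin filaments. Its brighter probe stood at 4.09 and 4.01 with PGE2, against 3.95 and 4.81 in control, and its dimmer probe at 1.69 and 1.52 against 1.62 and 2.44. The PGE2 arrays lay between the control arrays on the brighter probe and overlapped them on the dimmer. The difference of -0.33 ± 0.33 had a 95% interval of -1.24 to 0.58 (adjusted p = 0.644, limma), which leaves room for differences of the size seen in Tpm1 and does not show that Smtn was the same in both groups. It was -0.76 without control replicate 1, -0.08 on the authors' scaled signal and 0.09 without control replicate 2, and, as given above, 0.09 as a ratio to Actb.

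Lmod1 and Des did not pass the filter. Lmod1 (1qE4), whose leiomodin 1 nucleates actin filaments in smooth muscle, stood at -6.31 and -6.47 with PGE2, not well above background on either array. In control it stood at -2.42 and -3.58, and only replicate 1 was well above background. Against a floor taken as for Acta2, the signal was 2.55-fold lower with PGE2. That fold is rough and not a strict bound, since the control mean includes replicate 2. The difference was not tested with the filter in place. With no filter, or with 1 array above background as the filter, the measured difference of -3.39 was tested and not called (adjusted p = 0.272 and 0.244, limma). For Des (1qC4), which encodes desmin, the brighter probe stood at -4.68 and -3.66 with PGE2 against -4.26 and -5.42 in control, and only PGE2 replicate 2 was well above background. The other Des probe never stood well above background, so no fold is given for Des.

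**Figure D3:**
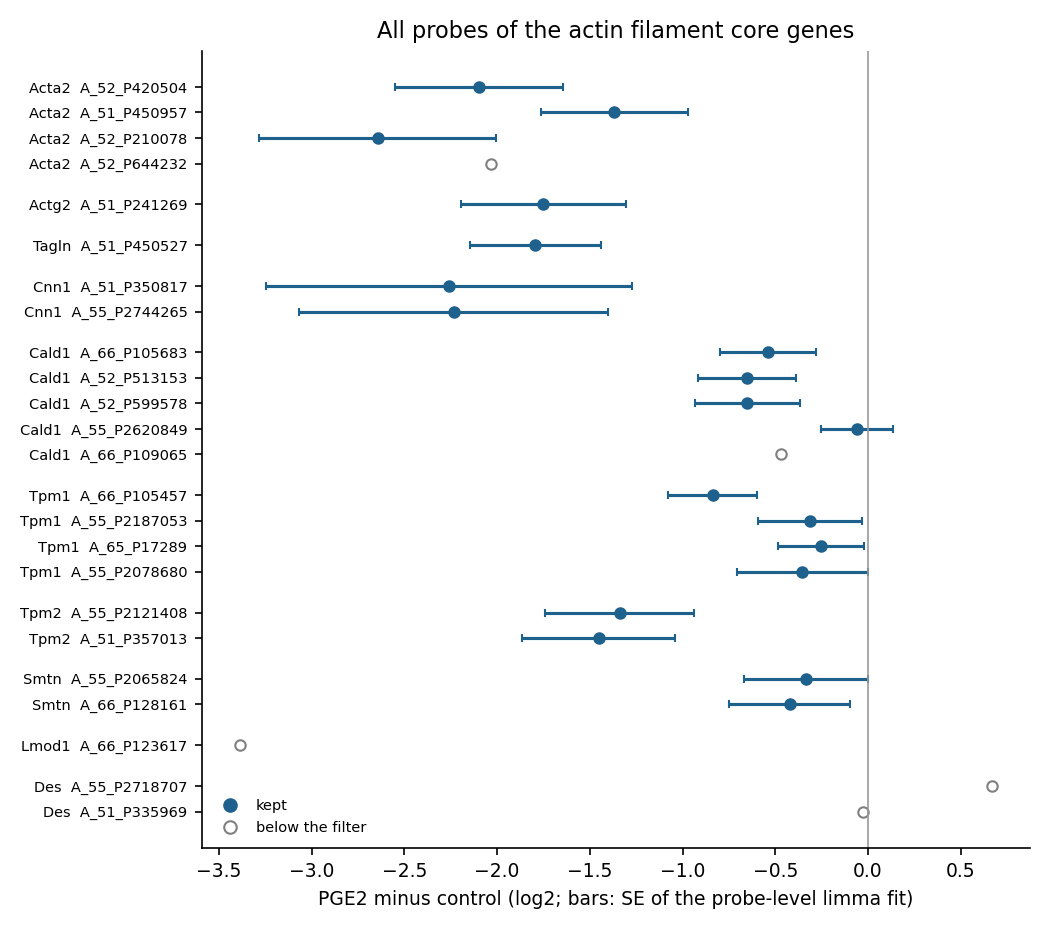
PGE2 minus control difference (log2) of all 24 probes of the core genes, by gene and, within a gene, from the brightest to the dimmest in control (filled: the 19 probes that passed the filter, with the standard error of a limma fit over 26100 probes; open: the 5 that did not). The 19 filled points, of which 18 were well above background on all 4 arrays and 1, the dimmer Cnn1 probe, passed through control alone, lie below 0, and those of Cald1, Tpm1 and Smtn lie nearer to 0 than those of Acta2, Actg2, Tagln, Cnn1 and Tpm2.

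The 0 calls among the 8 tested core genes at an adjusted p of 0.05 thus stand beside 48 lower and 70 higher calls over all tested genes, and limma made 0 calls over all genes once either control array was left out. At an unadjusted p under 0.05, 5 of the 8 (Acta2, Actg2, Tagln, Tpm1 and Tpm2) were lower and 0 higher, where 10.5% of tested genes were lower and 7.31% higher. Both PGE2 arrays lay below both control arrays in 7 of the 8, against 28.3% of tested genes, and groups that did not overlap in either direction made up 52.2%. Differences below -1 were found in 5 of the 8 (Acta2, Actg2, Tagln, Cnn1 and Tpm2) and in 6.09% of tested genes. The median difference was -1.55 over the 8 and -0.03 over all 17660. The representing probes of the 8 were well above background on all 4 arrays, so none entered through 1 group alone. Of all tested genes, 1.46% had a lower value than Cnn1, 1.72% than Acta2, 2.33% than Tagln, 2.51% than Actg2 and 3.91% than Tpm2, while 24.5% had a lower value than Smtn. The core genes also varied more between arrays of 1 group, with a median gap of 0.31 between PGE2 arrays and 0.86 between control arrays, against 0.20 and 0.28 over all tested genes. Control replicate 1 was above control replicate 2 in 6 of the 8, the exceptions being Cnn1 and Smtn, and PGE2 replicate 1 was below PGE2 replicate 2 in 6 of the 8, all but Tagln and Smtn. The median over the 8 was -0.88 without PGE2 replicate 1.

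**Figure D4:**
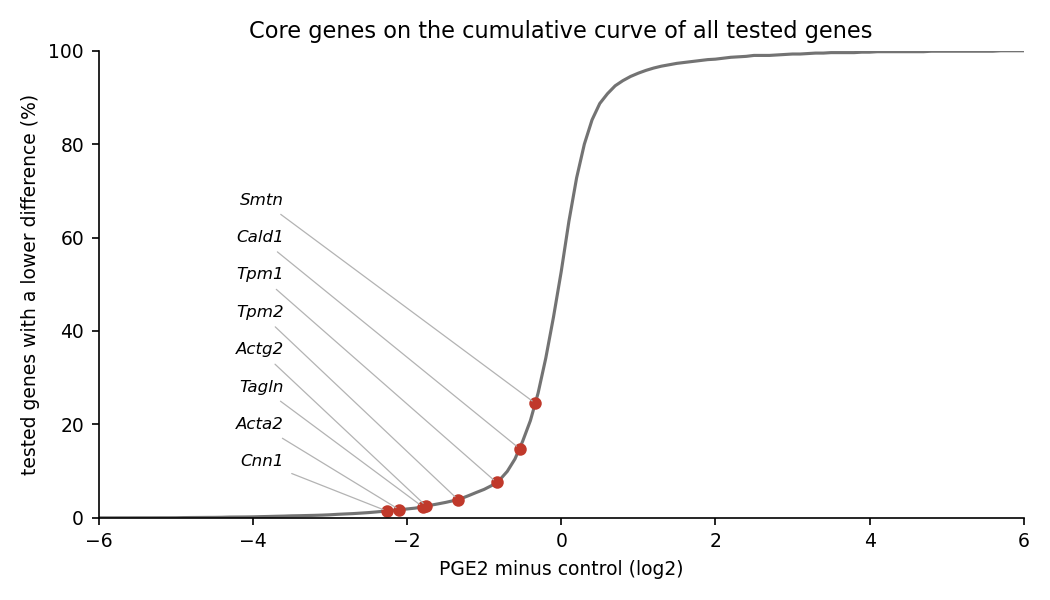
Cumulative curve of the PGE2 minus control difference (log2, horizontal axis) over 17660 tested genes, with the percentage of tested genes that had a lower difference on the vertical axis (grey line) and the 8 tested core genes as red points. Cnn1, Acta2, Tagln, Actg2 and Tpm2 lie in the lowest 4% of the curve, and Smtn at 24.5%.

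Between 47.9% and 53.8% of the non-control spots of an array were well above background. The label of smooth muscle was checked on 14 markers outside the core, of which 9 were well above background on all 4 arrays and 2, Myocd and Pln, on none. Myh11, of smooth muscle myosin, did not pass the filter. Summed over the 14, the marker signal was 45.2 and 89.7 times the 75th percentile with PGE2, against 184.6 and 129.9 in control, without overlap. Most of that sum is the brightest marker, Myl9, so it does not describe the 14 as a set. Myl9 stood at 4.75 and 6.13 with PGE2, against 7.35 and 6.75 in control (-1.61 ± 0.54, adjusted p = 0.258, limma). Of the 10 that were tested, 1 was called lower, the integrin gene Itga8 (-4.88 ± 0.32, adjusted p = 0.0438, limma), and 8 differences were below 0. Over all tested genes, 0.272% were called lower and 52.7% had a difference below 0. The Itga8 call depends on the processing, since no gene at all was called on the authors' scaled signal or without a filter on dim probes. The pericyte and smooth muscle marker Rgs5 ran the other way without overlap (1.22 ± 0.32, adjusted p = 0.195), as did Mcam (0.29 ± 0.20, adjusted p = 0.514). Mylk differed by -0.07 on a dim probe (-3.17 and -3.66 with PGE2 against -3.40 and -3.31 in control), which does not show that it was unchanged. The sums of fibroblast, macrophage, endothelial, striated muscle, and mesothelial and epithelial markers were also lower on both PGE2 arrays than on both control arrays, while those of adipocyte and osteochondrogenic markers overlapped. Fibroblast markers (6 of 8 above background on all arrays, Dpt on none) summed to 198.0 and 195.3 with PGE2 against 425.9 and 225.6 in control, and macrophage markers (5 of 8, with Adgre1 and Lyz2 on none) to 61.6 and 41.4 against 77.8 and 64.0. A sum is set by its brightest genes, and members of the fibroblast and macrophage lists went both ways. The 6 tested fibroblast markers had a median difference of 0.03, with Dcn at -2.91 ± 0.46 and Pi16 at 2.78 ± 0.43 (adjusted p = 0.101 and 0.0962). The 5 tested macrophage markers had a median of 0.62, with the bright Itgam at -0.61 and Ptprc at -0.36. Cd68 stood at 2.09 ± 0.36 (adjusted p = 0.109, limma), Csf1r at 0.98 (a second probe gave -0.42) and Cd14 at 0.62. These 3 were higher without overlap, as were 24% of all tested genes. Of 9 endothelial markers, 2 were above background on all arrays, and Tek, Tie1, Emcn and Cldn5 on none. The 9 summed to 0.65 and 0.84 with PGE2 against 0.96 and 1.09 in control. Adipocyte markers (1 of 5, with Adipoq, Plin1 and Cidec on none) summed to 0.34 and 0.58 against 0.42 and 1.30. Striated muscle markers (1 of 8, with Myod1, Myog and Ckm on none) summed to 0.46 and 0.33 against 0.53 and 0.98. With so few markers above background, these sums say little about those cells. The sums were 11.9 and 12.8 with PGE2 against 16.8 and 13.3 in control for mesothelial and epithelial markers (Epcam on none) and 18.3 and 24.6 against 13.9 and 21.9 for osteochondrogenic markers (Ibsp on none). The 3 tested mesothelial and epithelial markers were below 0, with Krt19 at -2.45 ± 0.27, Cdh1 at -1.45 ± 0.34 and Msln at -0.08 ± 0.24. None of these 3 was called (limma). The marker genes given with values were chosen after those values were seen. The part of other cells in the core genes' differences was not tested, and in these bulk cultures fewer smooth muscle cells and less RNA per cell cannot be told apart.

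Relatives of the core genes did not share 1 direction. Of 14 listed, 9 were tested, 0 were called (limma), and at an unadjusted p under 0.05 2 were lower and 1 higher. Over all tested genes, 10.5% were lower and 7.31% higher at that threshold. Tagln2, the transgelin of non-muscle cells, stood at 6.26 and 6.01 with PGE2, against 5.01 and 4.63 in control, a difference of 1.32 ± 0.22 (adjusted p = 0.104) opposite in sign to that of Tagln, and its second probe gave 1.44. Cnn2, the calponin of smooth and non-muscle cells, stood at 3.34 and 4.02 against 5.25 and 4.67, a difference of -1.29 ± 0.34 (adjusted p = 0.196). Cnn3 stood at -0.04 ± 0.28, with a second probe at 0.46. The tropomyosin genes Tpm3 and Tpm4, which serve the cytoskeleton of most cells, stood at 0.12 ± 0.16 and 0.26 ± 0.22. Among the others, Smtnl2, related to smoothelin, stood at -0.53 ± 0.18, and the tropomodulin genes Tmod2, Tmod3 and Tmod4, whose proteins cap the pointed end of actin filaments, at -0.43, 0.30 and -0.21. The median of the 9 was -0.04.

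Among 7 intermediate filament genes, 5 were tested and 0 were called (limma), with 1 lower and 1 higher at an unadjusted p under 0.05. These counts stand beside 10.5% lower and 7.31% higher over all tested genes. Synm, whose synemin joins desmin and vimentin filaments, stood at -1.93 and -2.17 with PGE2, against 1.31 and 0.09 in control, a difference of -2.75 ± 0.46 (adjusted p = 0.105). The bright vimentin gene Vim and the lamin gene Lmna stood at -0.41 ± 0.22 and -0.26 ± 0.25, and the keratin gene Krt18 at 0.83 ± 0.21 (adjusted p = 0.188). The median of the 5 was -0.26.

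Actin crosslinkers and membrane linkers had 17 of 19 genes tested and 0 called (limma), with 5 lower and 1 higher at an unadjusted p under 0.05, 11 of the 17 without overlap below control and a median of -0.52. Over all tested genes these shares were 10.5%, 7.31% and 28.3%. The bright genes Csrp1, Fhl1, both of LIM proteins, and Flna, of the crosslinker filamin A, stood at -0.08 ± 0.27, -0.71 ± 0.22 and -0.62 ± 0.18. The largest difference was that of the LIM protein gene Fhl2, which stood at -0.16 and 1.47 with PGE2, against 1.88 and 3.26 in control (-1.91 ± 0.75, adjusted p = 0.302). Of the genes of actin assembly, capping and severing, 25 of 27 were tested and 0 called (limma), with 3 lower and 0 higher at an unadjusted p under 0.05 and a median of -0.17. Tmsb4x, whose thymosin beta 4 binds actin monomers, stood at 6.85 and 6.85 with PGE2, against 8.85 and 8.04 in control (-1.60 ± 0.32, adjusted p = 0.135). The Arp2/3 complex genes Arpc2 and Arpc1b stood at -0.74 ± 0.17 and 0.14 ± 0.18, and the second Arpc1b probe at -0.32.

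The transcription factor gene Srf stood at 1.19 and 1.62 with PGE2, against 2.40 and 1.93 in control, a difference of -0.76 ± 0.26 (adjusted p = 0.268, limma). Its actin-sensing cofactors, which leave actin monomers to enter the nucleus, stood at 0.42 ± 0.24 for Mrtfa and -0.54 ± 0.16 for Mrtfb (adjusted p = 0.434 and 0.233). A second Mrtfa probe gave 0.14. Myocd, the cofactor most typical of smooth muscle, gave no array a signal well above background. Of these 4 genes, 3 were tested and 0 called, with 2 lower at an unadjusted p under 0.05, as were 10.5% of all tested genes.

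**Figure D5:**
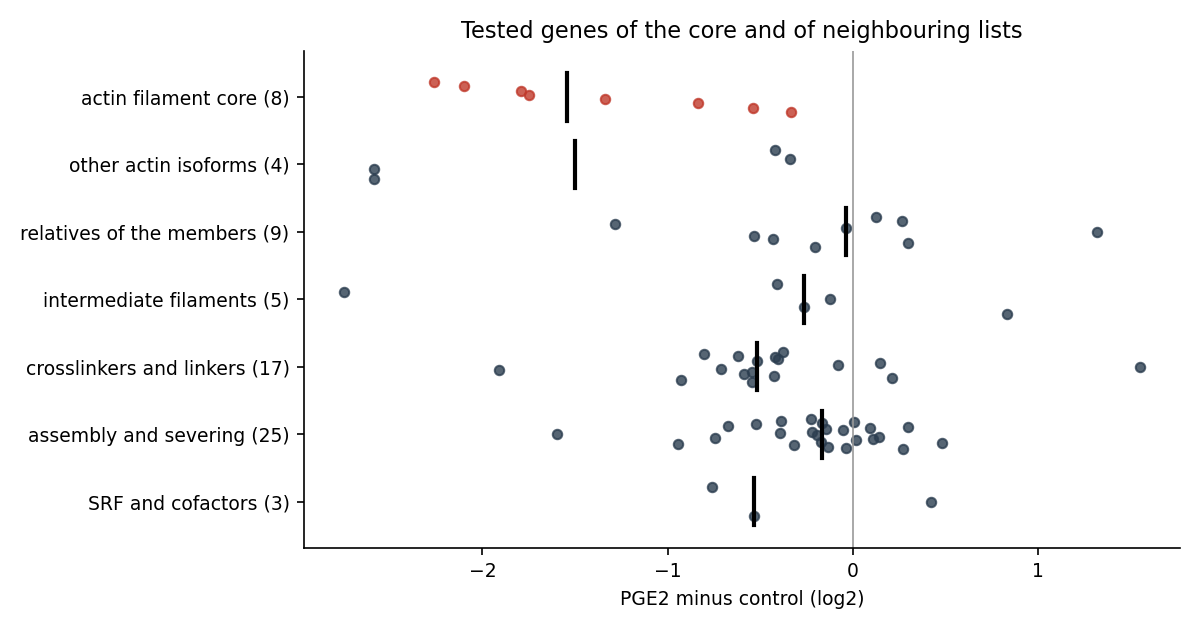
PGE2 minus control difference (log2) of each tested gene of the actin filament core (red, top) and of 6 neighbouring lists (dark blue), with the number tested in parentheses and the median of each list as a black bar. The medians are -1.55 for the core, -1.50 for the other actin isoforms, -0.04 for relatives of the core genes, -0.26 for intermediate filaments, -0.52 for crosslinkers and linkers, -0.17 for assembly and severing and -0.54 for SRF and its cofactors. The -1.50 falls between Acta1 and Actc1 (-2.59 and -2.58) and Actb and Actg1 (-0.42 and -0.34), and describes no gene of its list.

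The genes outside the core whose pattern over the 4 arrays lay nearest to the median pattern of the 8 core genes were Ism1, Btg2, Fbxo5, B3galt1 and Gypc. Each array value was taken minus the gene's own mean, and the Euclidean distances were 0.11, 0.15, 0.16, 0.16 and 0.18 log2 units. Their differences ran from -1.36 to -1.17, and none was called (limma, lowest adjusted p = 0.124). With 4 arrays such a likeness mostly reflects a difference of like size.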

How the data were processed

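Per the labels' protocols, Cy3 label was put on total RNA with a Low Input Quick Amp kit of Agilent. The deposited intensity values come from Feature Extraction 11.5.1.1, per the file headers (array design 074809, probe positions on mm9), but from 12.0.3.1 by the submitters' processing notes. The authors' deposited values for the series are a scaled signal, equal to the processed intensity times 1 constant per array (0.945 to 1.07), with column medians of 39.9 and 40.5 for PGE2 and 32.7 and 42.9 for control. It gave symbols and cytobands, and its scaled signal was an alternative. All arrays carry 1 scan identifier, so no scan batch could be tested.

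Here, log2 processed intensity was taken minus each array's 75th percentile over 59305 non-control spots. Spots of 1 probe were averaged, and spots flagged as outliers on any array were dropped, which removed 158 probes and no spot of a core gene. Symbols were updated by gene ID with RefSeq (GRCm38.p6), which matched 44970 of 47700 spots with a symbol. To be kept, a probe had to be well above background on 2 of 2 arrays in PGE2 or in control, as 26100 were, and a gene is its kept probe of highest mean signal. PGE2 was compared with control in limma 3.58.1 (R 4.3.3) with lmFit, eBayes and Benjamini-Hochberg adjustment over 17660 genes, at 0.05, with 2 residual and 2.15 prior degrees of freedom and no replicate block. The number of arrays limits the precision. The limma fit was tested on simulated gene values, and the steps before it were not. The core genes, lists, markers and tests were chosen with earlier results of these data known. Of the lists, the text names all actins, the tested relatives, SRF and cofactors, and otherwise the 3 brightest tested genes, the largest difference and any called gene. The result of 1 marker list is not reported here. Alternatives were other scalings, filters, probe rules and variance models, each array left out and a replicate block. The planned normexp on mean intensities used median intensities, which the files hold, an alternative set after seeing the files.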

Additional observations from a re-analysis of the deposited data

How the results depend on the processing

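No core gene, and no gene of the 6 neighbouring lists, was called by limma under any of the 17 alternatives, and the lowest adjusted p of a core gene was 0.0607 (Cnn1 without PGE2 replicate 2). Of 136 differences of the 8 tested core genes under these, 135 were below 0, the exception being Smtn without control replicate 2. The 136 are not separate tests. Other filters and variance models, the replicate block and each kept probe by itself left every representing probe's difference at the value given above. The remaining alternatives reused the same arrays, so the count adds little to the signs already given. With 1 array left out, the Smtn difference ran from -0.76 to 0.092. The median over the core genes was -0.84 when each kept probe counted by itself, and -1.81 to -0.88 with 1 array left out, the -0.88 without PGE2 replicate 1. The authors' scaled signal moved the median of all tested genes to 0.23 and that of the core genes to -1.29, and leaving out the filter moved the median of all tested genes to -0.33.

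The background count moved more. Against 70 higher and 48 lower genes over all tested, limma called 0 and 0 on the authors' scaled signal (4203 at an unadjusted p under 0.05), 0 and 0 without a filter on dim probes (2685) and 0 and 0 with probes above background on at least 1 array (2682). It called 39 and 15 with the filter on all 4 arrays, 34 and 24 with robust eBayes, and 0 to 98 higher and 0 to 76 lower with 1 array left out, the 0 without either control array (2710 and 2963 at an unadjusted p under 0.05). The causes were not tested. The titles number the replicates in both groups without saying that numbers mark a shared batch. With the replicate number as a block, 88 genes were called higher and 84 lower, and 0 core genes were called (lowest adjusted p = 0.0875, Tagln). Deviations of equal numbers correlated at r = 0.42 across genes, which are not independent.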
